A study of Sus scrofa with 12 samples.

Results

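The enzymes that make citrulline, arginine, proline and glutamine were described in RNA-seq libraries of piglet jejunum. The 9 genes (CPS1, NAGS, OTC, ASS1, ASL, ARG2, OAT, ALDH18A1 and GLUL) were taken by name from the deposited gene table, and all 9 of the 17049 gene names in that table were found, at 11 loci whose values were summed per name. The 12 libraries formed 4 groups of 3 piglets. Sucking control piglets (21 days of age, the day of weaning) and weaned control piglets (28 days of age, 7 days after weaning) came from sows bred to Landrace boars and fed a basal corn and soybean meal diet. Sucking and weaned resveratrol piglets of the same ages came from sows given 300 mg/kg resveratrol, a plant polyphenol, in that diet from 20 days after breeding through lactation, and litters were evened by fostering within a diet, so that all 4 groups held fostered litters. The study's methods name other breeds (Yorkshire and Duroc) and a move to a nursery at weaning, which the labels do not, and they cover the 6 control libraries. The labels give jejunum as the tissue, while their extraction text speaks of an adipose type. Age and weaning changed together, and cannot be told apart.

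In young pigs the small intestine is a main source of citrulline, the precursor from which arginine is made there and in the kidney. Glutamine and glutamate are turned into pyrroline-5-carboxylate (P5C) by ALDH18A1, OAT converts P5C and ornithine into each other, and OTC joins ornithine to the carbamoyl phosphate that CPS1 makes in mitochondria. NAGS makes the activator that CPS1 needs. ASS1 and ASL turn citrulline into arginine, ARG2 is the mitochondrial arginase that returns arginine to ornithine, and GLUL makes glutamine from glutamate and ammonia.

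Values are in FPKM, fragments normalised to the library's mapped fragments and to transcript length, so that levels can be set side by side between genes. Differences are log2 fold changes on the log2(FPKM + 1) scale from limma. The standard used in the study, an unadjusted P under 0.05 with a log2 fold change above 1 or below -1, marks a gene as changed, and the Benjamini-Hochberg adjusted p over all gene names is given beside it. Where only the adjusted p is given, the text says whether the unadjusted P was under 0.05. No member had an adjusted p under 0.05 in any of the 6 comparisons made, where 0% of gene names had one for weaning in control litters, for the difference between litter sets and for resveratrol in weaned piglets, 0.00768% for weaning in resveratrol litters, 0.0776% for weaning over both litter sets and 0.0466% for resveratrol in sucking piglets. Exact permutation tests of 3 piglets against 3 cannot give a two-sided p below 0.1. The table holds no read counts, so that no counting error is given for single values. The study's supplement lists read totals for the control libraries, which were not used here.

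The libraries were checked with marker lists. All 10 villus brush border genes that the table names of 13 in the list had a mean over the 12 libraries above 1 FPKM. The 6 hepatocyte genes all had such a mean under 1 FPKM, which bears on CPS1 and OTC as they are also liver genes. The hepatocyte sum was at most 0.556 FPKM in control and 6.62 FPKM in resveratrol libraries, with APOH the highest at up to 4.38 FPKM. The mean of APOH was 1.74 FPKM in sucking and 1.48 FPKM in weaned resveratrol piglets. The libraries differed in markers of the position along the small intestine. The distal-minus-proximal score (the mean log2 level of 6 distal genes such as FABP6 less that of 7 proximal genes such as FABP1) was below 0 in 4 libraries, sucking control 3 (-3.05), sucking resveratrol 2 (-2.23) and weaned resveratrol 2 and 3 (-0.68 and -1.59), and between 0.97 and 4.12 in the other 8. Summed smooth muscle markers (7 named of 8) reached 3979 FPKM in the sucking resveratrol group against at most 646 FPKM in the other groups. Values in the 8 libraries with a score of at least 0 are given beside the results they bear on, and the part of the smooth muscle markers was not tested.

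OAT was the most abundant member in every group. Its mean was 995 ± 145 FPKM (SD, n = 3) in sucking control piglets, 556 ± 187 FPKM in weaned control piglets, 1280 ± 753 FPKM in sucking resveratrol piglets and 841 ± 318 FPKM in weaned resveratrol piglets. ASS1 came second in each group (370, 347, 187 and 160 FPKM in the same order), but its libraries overlapped those of OAT in weaned control piglets and those of the next member in every group except the weaned control group. CPS1 and ALDH18A1 came next, and they did not overlap in sucking control piglets alone. OTC followed with 57.4 to 77.6 FPKM, without overlap with the member below it in any group. GLUL and ASL lay between 13.6 and 34.3 FPKM. NAGS (6.74 to 9.68 FPKM) and ARG2 (5.83 to 7.18 FPKM) were the lowest and overlapped in every group. ARG1, the cytosolic arginase of liver, had a mean of 0.0348 FPKM.

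**Figure D1:**
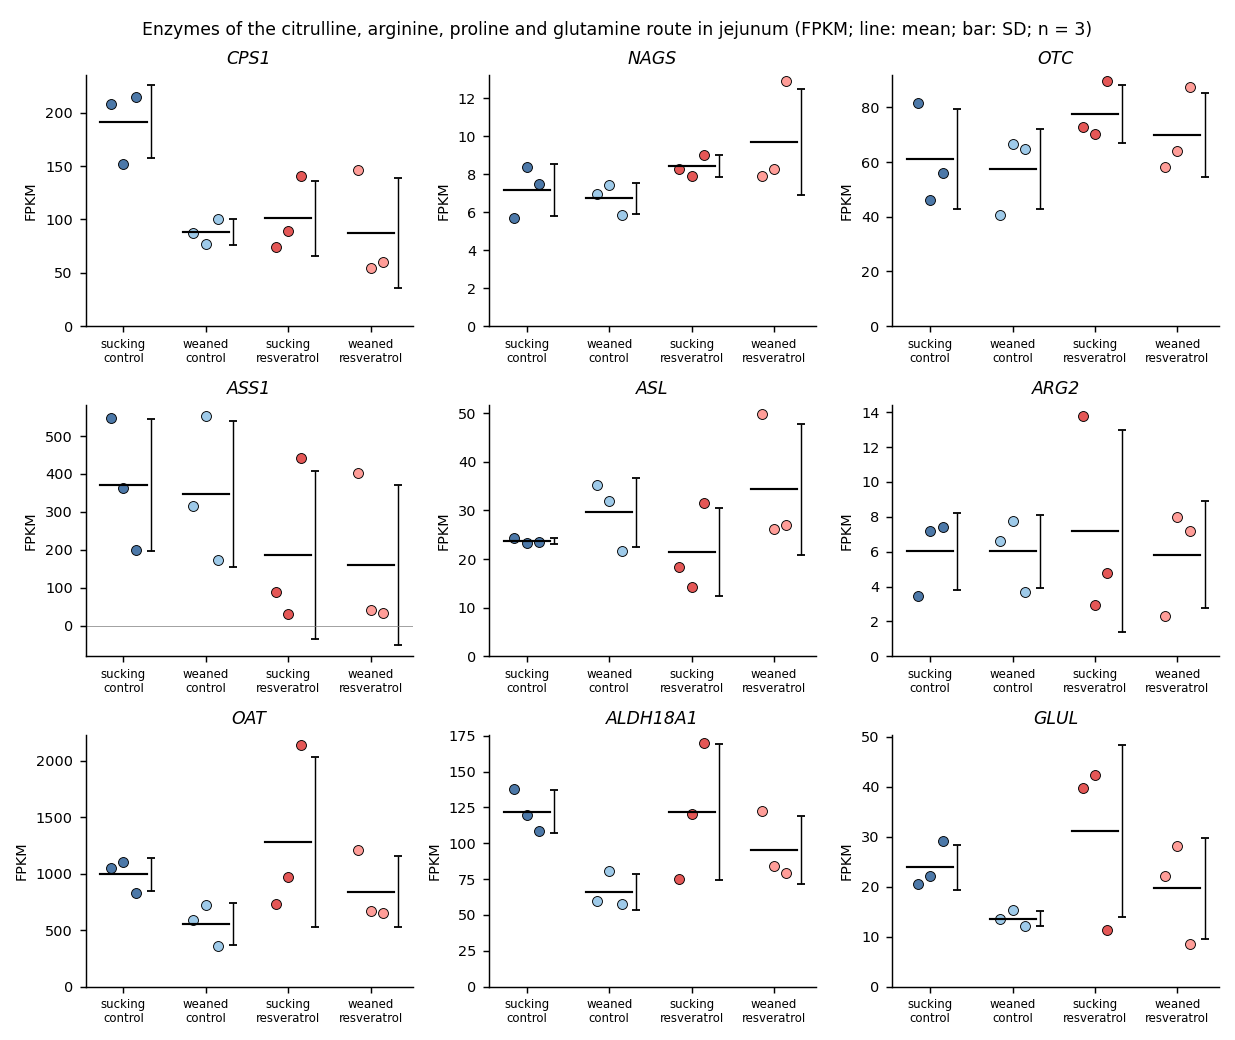
FPKM of each of the 9 members (vertical axes, from 0 or below) in the 12 libraries by group, with a line at the mean and a bar of 1 SD beside it (n = 3). The 3 sucking control libraries lie above the 3 weaned control libraries for CPS1, OAT, ALDH18A1 and GLUL, and ASS1 spreads from 30.9 to 552 FPKM.

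The 9 members took up 0.244% to 0.918% of a library's total FPKM. OAT made up 44.8% to 59.7% of the members' sum in the 6 control libraries and 59.8% to 71.9% in the 6 resveratrol libraries. The shares of ASS1 were 13.5% to 35.3% and 2.29% to 19.9%. The highest control share of OAT (59.74%) lay just below the lowest resveratrol share (59.79%), and no test was made of the shares.

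**Figure D2:**
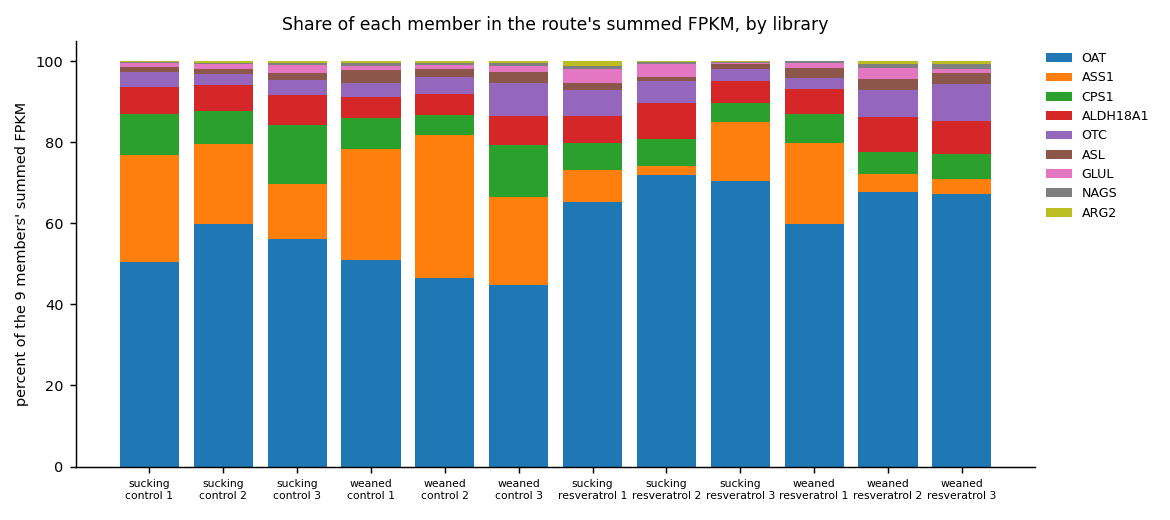
Percent of the members' summed FPKM (vertical axis, 0 to 100) taken by each member in each of the 12 libraries. OAT takes the largest share in every library, 44.8% to 71.9%, and the share of ASS1 is lowest in sucking resveratrol 2 at 2.29%.

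The first question was what changed with weaning in control litters. CPS1, which makes the carbamoyl phosphate for citrulline, fell after weaning. Before weaning it was at 209, 152 and 215 FPKM, and after weaning at 87.6, 76.8 and 101 FPKM. Every weaned library was below every sucking library, and the weaned mean was 0.461 of the sucking mean. The log2 fold change was -1.10 (95% interval -1.57 to -0.63, P = 0.000778, adjusted p = 0.117, exact permutation p = 0.1). CPS1 was the 1 member of 9 past the standard, against 3.31% of all 12611 gene names tested, and it stayed past it with each library left out in turn (-1.26 to -1.005). In bulk tissue, fewer cells of a type and less RNA per cell cannot be told apart.

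The study, from the same control libraries, lists CPS1 and GLUL among the genes lowered by weaning. Here ALDH18A1, OAT and GLUL were also lower after weaning in control litters, without reaching the fold limit. The study's call of GLUL was thus not met in this fit. ALDH18A1, which makes P5C from glutamate, had 138, 120 and 108 FPKM in sucking piglets and 59.9, 80.4 and 57.7 FPKM in weaned piglets, a log2 fold change of -0.89 (-1.33 to -0.44, adjusted p = 0.119). OAT had 1053, 1102 and 829 FPKM before and 587, 726 and 357 FPKM after weaning (-0.89, -1.57 to -0.21, adjusted p = 0.196). GLUL, the glutamine synthetase, had 20.5, 22.1 and 29.0 FPKM before and 13.4, 15.2 and 12.1 FPKM after (-0.76, -1.20 to -0.32, adjusted p = 0.141). For all 3 the unadjusted P was under 0.05 and the groups did not overlap. In the libraries with a distal-minus-proximal score of at least 0 they were at -0.97, -1.01 and -0.62, and of these only ALDH18A1 had a P under 0.05. Single libraries decided the fold limit, since ALDH18A1 (-1.03) and OAT (-1.11) passed the standard without weaned control 2, and OAT (-1.01) also without sucking control 3.

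In all, 4 of 9 members had an unadjusted P under 0.05 and groups without overlap, and all 4 were lower after weaning. Over all gene names 17.7% had such a P (8.38% with the lower level after weaning), and 25.3% had no overlap (12.7% lower). The members' median log2 fold change was -0.13, beside -0.02 over all gene names. The levels of the remaining 5 members overlapped between the groups. Their log2 fold changes were -0.07 for NAGS (-0.53 to 0.39), -0.09 for OTC (-0.74 to 0.57), -0.13 for ASS1 (-1.30 to 1.04), 0.28 for ASL (-0.20 to 0.76) and 0.01 for ARG2 (-0.78 to 0.80). The intervals of OTC and NAGS do not reach a log2 change of 1, while that of ASS1 does.

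Position markers separated the control ages, with a distal-minus-proximal score of 3.10, 1.59 and -3.05 in sucking and 4.003, 3.599 and 4.12 in weaned control libraries, without overlap. Of the 7 proximal genes 3 were lower and of the 6 distal genes 2 were higher after weaning without overlap, so that position and age cannot be told apart in this score in control litters. The study reported FABP1, S100G, TRPV6 and the identifier matched here to SLC40A1 as lower in weaned piglets. It reported FABP6, NR1H4, SLC51A, PYY and the identifier matched here to SLC10A2 as higher. The score thus includes genes of the study's own weaning result. Villus markers were lower after weaning, with overlap. Their summed level was 5360 to 10088 FPKM in sucking control libraries and 3317 to 7366 FPKM in weaned control libraries. Of the 10 villus genes, 4 were lower in weaned control libraries without overlap (FABP2, MTTP, APOB and DPP4), and FABP2 was at 260 to 759 FPKM before and 60.3 to 131 FPKM after weaning. Of the 4 goblet genes 1 was higher without overlap, TFF3 at 313 to 610 FPKM and then at 683 to 1364 FPKM, while CLCA1, AGR2 and SPINK4 overlapped. Of the 9 crypt and cell division genes 3 were higher without overlap (MKI67, SMOC2 and MCM2), with MKI67 at 39.1 to 42.2 FPKM and then at 49.7 to 68.2 FPKM. Of the 8 lymphocyte genes 2 were higher and 1 lower without overlap. The part of the goblet, crypt and lymphocyte markers in the results was not tested. With the villus marker score in the 12-library fit, the weaning log2 fold change of CPS1 over both litter sets was -0.54 in place of -0.71, with a P under 0.05 in both fits. That of ALDH18A1 was -0.45 in place of -0.59, and that of OAT -0.41 in place of -0.70, where the P of OAT was no longer under 0.05. Without sucking control 3, the control library with a score below 0, CPS1 was at -1.01 and past the standard, in a 4-group fit of the 8 libraries with a score of at least 0.

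**Figure D3:**
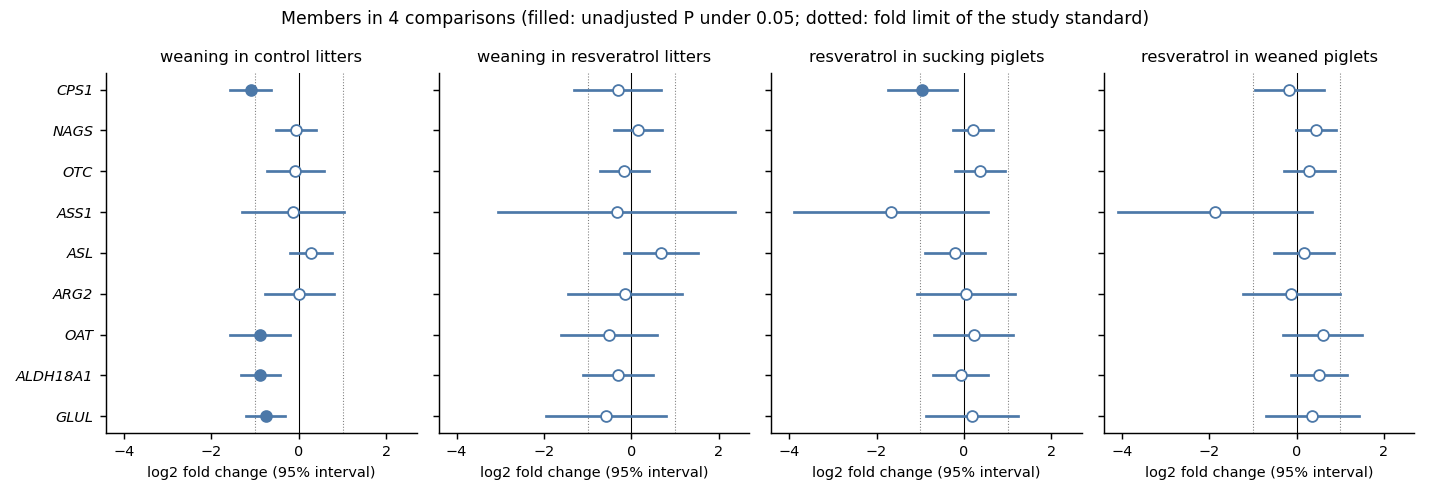
Log2 fold changes on the log2(FPKM + 1) scale (horizontal axes) of the 9 members with 95% intervals in 4 comparisons; filled points have an unadjusted P under 0.05, and dotted lines mark the fold limit of the standard. The 4 filled points for weaning in control litters lie between -1.10 and -0.76, and CPS1 in sucking piglets is the only other filled point.

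The same contrast in resveratrol litters gave no member past the standard and none with a P under 0.05, where 4.75% of 13013 gene names were past the standard and 13.3% had such a P. CPS1 had 73.9, 88.8 and 141 FPKM in sucking and 147, 54.5 and 60.0 FPKM in weaned piglets, so that the groups overlapped, and its log2 fold change was -0.31 (-1.31 to 0.68, adjusted p = 0.773). Its direction turned in the libraries with a score of at least 0 (0.52, with 1 weaned library) and in the Ballgown model (0.33), and both also turned ALDH18A1 (0.12 and 0.11) and GLUL (0.055 and 0.79). With 1 library left out the effects lay between -0.76 (without weaned resveratrol 1) and -0.05 for CPS1, between -0.61 (without sucking resveratrol 1) and -0.02 for ALDH18A1 and between -0.84 (without sucking resveratrol 1) and -0.06 for OAT, each nearest to 0 without sucking resveratrol 3. Without that library GLUL was at -1.17, past the standard, and without weaned resveratrol 3 at -0.10. ALDH18A1 had 74.8, 120 and 170 FPKM before and 123, 84.5 and 79.0 FPKM after weaning (-0.30, -1.10 to 0.50). OAT had 732, 969 and 2139 FPKM before and 1208, 664 and 650 FPKM after (-0.51, -1.61 to 0.59). GLUL was at 39.7, 42.4 and 11.3 FPKM and then at 22.2, 28.2 and 8.497 FPKM (-0.58, -1.96 to 0.79). For CPS1, ALDH18A1 and OAT the highest sucking library was number 3 and the highest weaned library number 1, and for GLUL the lowest of each group was number 3. The median over all gene names was -0.16 here, and rescaling by median ratios brought it to 0.01.

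ASL, which releases arginine, had 18.4, 14.3 and 31.6 FPKM in sucking and 49.8, 26.1 and 27.0 FPKM in weaned resveratrol piglets (0.67, -0.18 to 1.51, adjusted p = 0.457). In the 8 libraries with a distal-minus-proximal score of at least 0, its log2 fold change was 1.02, past the standard. That fit keeps 1 weaned resveratrol library, the highest of its group for ASL, whose spread is assumed to be that of the other groups.

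Whether the weaning effect differed between the litter sets was tested directly. No member had a P under 0.05 for the difference (resveratrol less control litters), where 13.7% of 12886 gene names did. The largest differences among the members were 0.79 for CPS1 (-0.32 to 1.90, adjusted p = 0.502) and 0.59 for ALDH18A1 (-0.31 to 1.48). The smaller effect in resveratrol litters is therefore not shown to differ from that in control litters. With the distal-minus-proximal score in the fit the difference for CPS1 was 1.16, past the standard. In the 8 libraries with a score of at least 0 it was 1.53. That value rests on weaned resveratrol 1, the highest of its group for CPS1, as the only weaned resveratrol library. Its spread is assumed to be that of the other groups. With 1 library left out the difference was 0.34 to 1.05 for CPS1 and 0.28 to 0.87 for ALDH18A1, and neither passed the standard.

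Over both litter sets, 3 of 9 members had a P under 0.05 for weaning (19% of all gene names, 12.5% with the lower level after weaning), and none reached the fold limit, where 1.42% of gene names were past the standard. CPS1 had a log2 fold change of -0.71 (-1.26 to -0.15, adjusted p = 0.189, exact permutation p = 0.05 with ages permuted within diet, smallest possible 0.005). ALDH18A1 had -0.59 (-1.04 to -0.15, P = 0.0138, adjusted p = 0.175, exact permutation p = 0.045) and OAT -0.70 (-1.34 to -0.06, adjusted p = 0.233, exact permutation p = 0.05). Of the 6 sucking libraries, 3 of CPS1 lay within the range of the weaned libraries. With the distal-minus-proximal score in the fit ASS1 did pass the standard, with the lower level after weaning. Without the 4 libraries with a score below 0, CPS1 was at -0.25, ALDH18A1 at -0.42 and OAT at -0.53, none with a P under 0.05.

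Resveratrol litters were next compared with control litters at each age. In sucking piglets CPS1 was lower in the resveratrol group, at 73.9, 88.8 and 141 FPKM against 209, 152 and 215 FPKM. The groups did not overlap, and the mean ratio was 0.528. The log2 fold change was -0.95 (-1.74 to -0.17, P = 0.0216, adjusted p = 0.194, exact permutation p = 0.1), just inside the fold limit. It was -1.05 after median-of-ratios rescaling, past the standard, and -0.80 in the libraries with a score of at least 0, where its P was no longer under 0.05. With 1 library left out it was -1.22 (without sucking resveratrol 3) to -0.75 (without sucking resveratrol 1), and it passed the standard without sucking resveratrol 3 or sucking control 2 (-1.11). In weaned piglets CPS1 was at -0.16 (-0.95 to 0.62, adjusted p = 0.944) with overlapping groups, and at 0.73 in the libraries with a score of at least 0, which keep 1 weaned resveratrol library. In sucking piglets CPS1 was the 1 member of 9 with a P under 0.05 or with no overlap, where 18.5% and 21% of all gene names had these. This comparison shares the sucking control libraries with that of weaning in control litters. The smooth muscle score was 7.30 and 8.27 in sucking resveratrol 1 and 2, the lowest sucking libraries in CPS1, and 3.66 to 5.69 in the other 10 libraries, and its part in the result was not tested. Of the 10 villus genes, 3 (VIL1, MTTP and APOB) were lower in sucking resveratrol than in sucking control libraries without overlap. VIL1 was at 296 to 801 FPKM against 813 to 1021 FPKM. The other villus genes overlapped, and MEP1A and MEP1B had higher means in sucking resveratrol piglets (240 and 212 FPKM against 126 and 168 FPKM). Their part in the result was not tested.

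ASS1, the enzyme that joins citrulline to aspartate, varied widely between libraries. It had 548, 364 and 200 FPKM in sucking control and 316, 552 and 173 FPKM in weaned control libraries. In resveratrol litters it had 88.2, 30.9 and 441 FPKM in sucking and 403, 42.4 and 34.6 FPKM in weaned libraries. In each resveratrol group 2 libraries lay below all 6 control libraries and the remaining library lay among the controls. The log2 fold changes for resveratrol were -1.67 in sucking piglets (-3.89 to 0.55, adjusted p = 0.399) and -1.87 in weaned piglets (-4.09 to 0.35, adjusted p = 0.682), neither past the standard. Without weaned resveratrol 1 the latter became -2.99, and without sucking resveratrol 3 the former became -2.68, both past the standard. Without sucking resveratrol 2 the former was -0.79, and without weaned resveratrol 3 the latter was -1.24, neither past it. In the libraries with a score of at least 0 they were -1.17 and 0.37, the latter resting on weaned resveratrol 1 alone.

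The level of ASS1 moved with the villus markers. In the 5 libraries with a villus brush border score (mean log2 level) between 6.08 and 6.90, it ranged from 30.9 to 173 FPKM, and in the 7 libraries with a score between 7.20 and 7.998 from 200 to 552 FPKM, without overlap. The split at 7 was chosen after the values were seen. With this score in the fit the resveratrol effect was -0.41 in sucking piglets, short of the standard, and -1.64 in weaned piglets, past it. With the distal-minus-proximal score it was -1.69 in sucking piglets, past the standard, and -0.09 in weaned piglets, short of it. CPS1 did not separate in this way, with 54.5 to 101 FPKM in the 5 libraries and 76.8 to 215 FPKM in the 7.

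**Figure D4:**
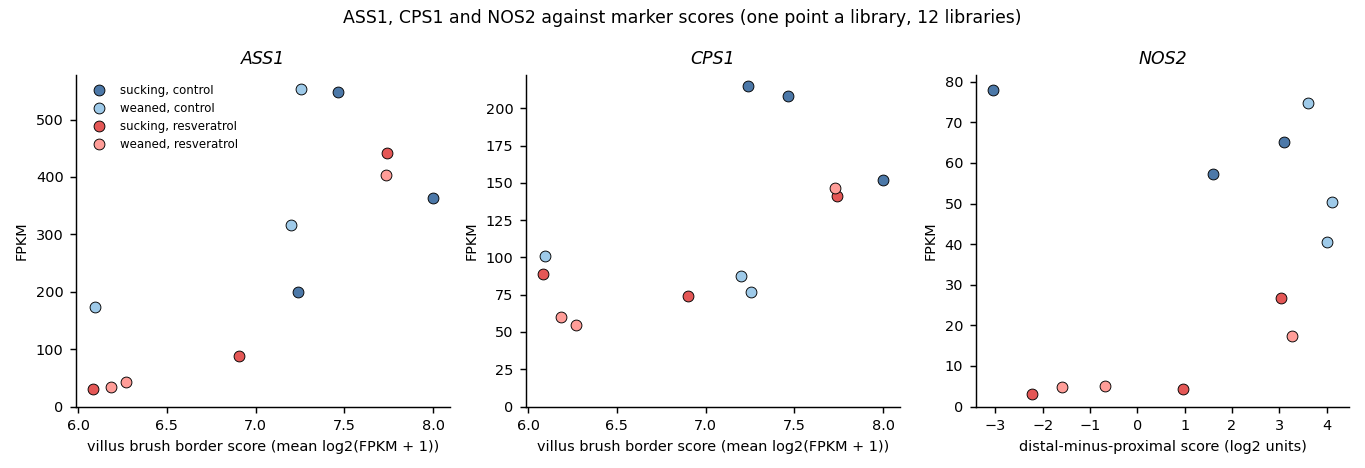
FPKM (vertical axes) of ASS1 and CPS1 against the villus brush border score and of NOS2 against the distal-minus-proximal score (horizontal axes, log2 units), 1 point for each of 12 libraries, coloured by group. ASS1 is at most 173 FPKM in the 5 libraries with a villus score below 7, and NOS2 is at least 40.6 FPKM in the 6 control libraries, of which 1 has a score below 0.

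Several other members were also compared between the diets. In weaned piglets the log2 fold changes were 0.51 for ALDH18A1 (-0.12 to 1.15), 0.59 for OAT (-0.31 to 1.496) and 0.36 for GLUL (-0.70 to 1.42). NAGS had 7.88, 8.29 and 12.9 FPKM in weaned resveratrol and 6.95, 7.44 and 5.83 FPKM in weaned control piglets, without overlap (0.44, -0.02 to 0.90, adjusted p = 0.654), where 17.2% of gene names had no overlap. No member had a P under 0.05 in weaned piglets, where 7.76% of gene names did. With the distal-minus-proximal score in the fit OAT was at 1.06, past the standard. With 1 library left out OAT was at 0.30 (without weaned resveratrol 1) to 0.81, GLUL at 0.03 (without weaned resveratrol 2) to 0.84 (without weaned resveratrol 3) and NAGS at 0.24 (without weaned resveratrol 3) to 0.56, none past the standard.

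OTC was the most even of the abundant members. It ranged from 40.7 to 89.6 FPKM over the 12 libraries and had no P under 0.05 in any of the 6 comparisons. ARG2 had none either, and ranged from 2.33 to 13.8 FPKM with its highest value in sucking resveratrol 1.

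Across the 12 libraries OAT and ALDH18A1, the pair of enzymes that meet at P5C, varied together (Pearson r = 0.93 of log2(FPKM + 1), n = 12 libraries that share tissue and groups, given as a description). The gene most like OAT was KCNJ13, a potassium channel gene (r = 0.96), which was also the most like ALDH18A1 (0.94). For CPS1 the nearest genes of 7743 were DIP2B (0.95), SYNJ1 (0.92) and FRS2 (0.91), and its nearest member was ASS1 (0.65). For ASS1 they were SLC1A1, a glutamate and aspartate transporter (0.94), STXBP3 (0.93) and B2M (0.93), and for ASL they were NUAK2 (0.94), PRR13 (0.93) and SLC52A3 (0.92). OTC (at most 0.86, with PPP1R11), ARG2 (0.86), GLUL (0.84, with EYA3) and NAGS (0.82, with LITAF) had weaker nearest genes, and none of these 4 had an r above 0.34 with another member.

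The other genes of the route were taken from 4 lists of enzymes and carriers, of which 25 genes were tested in each comparison. In the proline and P5C list of 6 symbols, which gives PYCR3 also as PYCRL, 2 were named in the table and 1 was tested. ALDH4A1, which oxidises P5C to glutamate, was higher after weaning in control litters (2.24, 2.30 and 1.89 FPKM to 3.24, 4.78 and 3.38 FPKM, log2 fold change 0.60) and lower in resveratrol litters (3.52, 4.84 and 3.02 FPKM to 2.28, 2.48 and 1.68 FPKM, -0.60). Both had a P under 0.05, neither passed the fold limit, and in neither litter set did the ages overlap.

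By unadjusted P alone, the weaning effect of ALDH4A1 differed between the litter sets. Of the 25 genes 4 had a P under 0.05 for the difference, where 13.7% of all gene names did. For ALDH4A1 the difference (resveratrol less control litters) was -1.20 (-1.84 to -0.56, adjusted p = 0.251). ALDH4A1 was the 1 gene of the 25 past the standard, beside 7.76% of all gene names, and 767 of the 1000 gene names past it had a lower value in resveratrol litters (518 lower and 388 higher after median-of-ratios rescaling). After quantile normalization it was at -0.95, and without the 4 libraries with a score below 0 at -0.92, neither past the standard. Of the 7 smooth muscle genes, 3 were lower after weaning in resveratrol litters without overlap, and 0 in control litters. The share of all gene names without overlap is not given for weaning in resveratrol litters. Counts and single genes without overlap there thus have no background beside them. In resveratrol litters TAGLN was at 173 to 1525 FPKM before and 84.2 to 161 FPKM after weaning. The part of these markers in the result was not tested.

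Among the users of arginine and ornithine (10 tested of 13), NOS2, the inducible nitric oxide synthase, was lower in resveratrol litters at both ages. It had 65.2, 57.3 and 78.02 FPKM in sucking control and 40.6, 74.8 and 50.3 FPKM in weaned control libraries. In resveratrol litters it had 4.32, 3.10 and 26.7 FPKM in sucking and 17.5, 5.16 and 4.87 FPKM in weaned libraries. All 6 resveratrol libraries lay below all 6 control libraries. It fell by 2.99 on the log2 scale in sucking piglets (-4.39 to -1.60, adjusted p = 0.0935) and by 2.64 in weaned piglets (-4.04 to -1.25, adjusted p = 0.411), where 4.77% and 1.55% of gene names were past the standard. With the distal-minus-proximal score in the fit these were -3.002 and -1.87, both past the standard. Without the 4 libraries with a score below 0 they were -2.35, past the standard, and -1.56, short of it and resting on 1 resveratrol library. NOS2 did not pass the standard for weaning in either litter set. T cell markers moved with it. All 4 in the lymphocyte list were lower in sucking resveratrol libraries without overlap, and all 4 had a lower mean in weaned resveratrol than in weaned control piglets, CD3G without overlap (3.64 to 3.96 FPKM in control and 0.947 to 2.56 FPKM in resveratrol libraries). Of all 8 lymphocyte genes 3 were lower without overlap in weaned resveratrol piglets, and 0 higher. Beside CD3G these were the B cell genes CD79B (2.25 to 37.5 FPKM in control and 1.65 to 2.23 FPKM in resveratrol libraries) and MS4A1 (0.0977 to 8.10 and 0.0462 to 0.0852 FPKM). In sucking piglets CD3E was at 49.1 to 82.5 FPKM in sucking control and 12.5 to 20.3 FPKM in sucking resveratrol libraries, and CD3D at 14.8 to 21.3 and 2.03 to 7.26 FPKM. Of the 8 lymphocyte genes 2 went the other way without overlap in these groups. CD79A was at 144 to 150 and 173 to 230 FPKM, and CD79B at 0.644 to 1.501 and 1.505 to 4.13 FPKM. The sum of all 8 lymphocyte genes was 231 to 274 FPKM and 204 to 272 FPKM in these groups, and their part in the result was not tested.

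GAMT, which completes creatine synthesis, was at 3.33, 2.63 and 2.03 FPKM in sucking control and 4.39, 4.67 and 4.49 FPKM in weaned control libraries (0.61), and at 6.07, 5.81 and 3.99 FPKM in sucking resveratrol libraries (0.78 against sucking control, adjusted p = 0.109). Its weaning effect differed between litter sets by -0.95 (adjusted p = 0.251), inside the fold limit, and all 3 had a P under 0.05. Weaned resveratrol libraries had 3.75, 3.91 and 3.97 FPKM of GAMT, below the sucking ones without overlap, but with no P under 0.05. NOS3, the endothelial nitric oxide synthase, and AZIN2, an antizyme inhibitor, also had a P under 0.05 for the difference. Their means were 1.03 and 1.64 FPKM (NOS3) and 0.516 and 0.656 FPKM (AZIN2) before and after weaning in control litters, and 2.39 and 1.57 FPKM and 1.32 and 0.344 FPKM in resveratrol litters. SRM, the spermidine synthase, was higher after weaning in control litters (2.61, 3.05 and 2.37 FPKM to 4.31, 5.16 and 6.75 FPKM, 0.79, adjusted p = 0.149), with a P under 0.05.

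**Figure D5:**
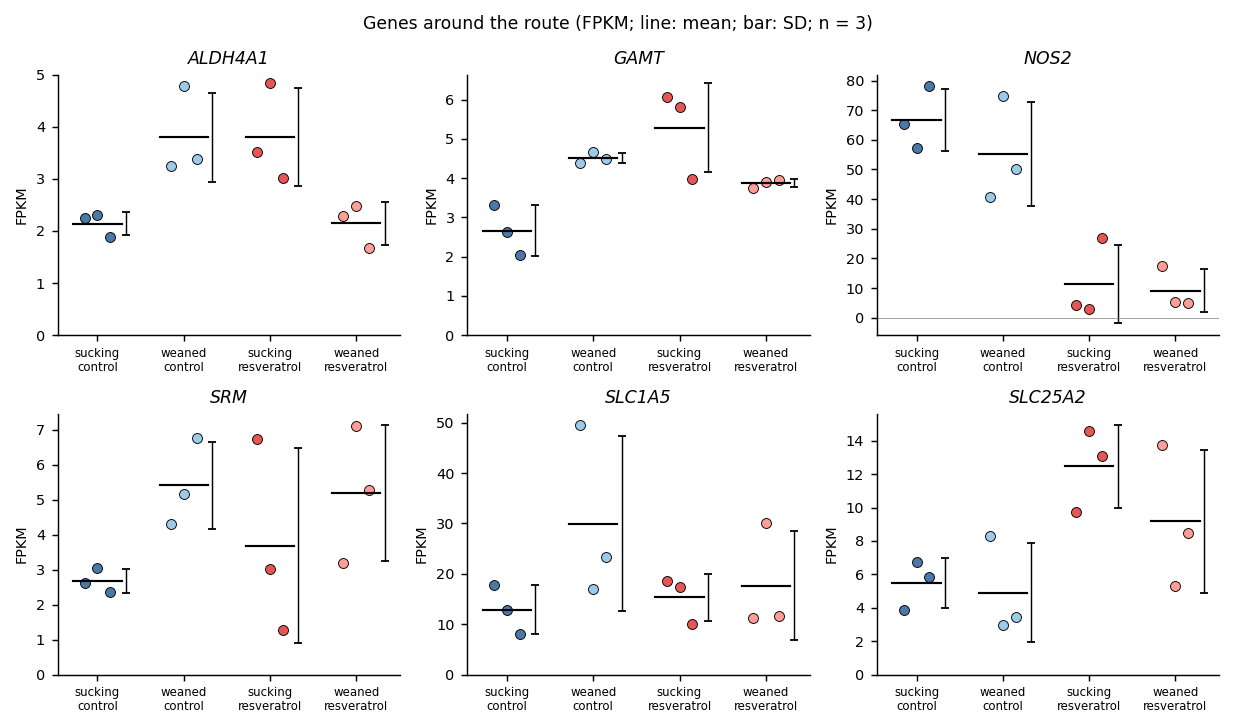
FPKM (vertical axes) of 6 genes around the route in the 12 libraries by group, with a line at the mean and a bar of 1 SD beside it (n = 3). ALDH4A1 is higher after weaning in control and lower in resveratrol litters, and all 6 resveratrol libraries of NOS2 (3.10 to 26.7 FPKM) lie below all 6 control libraries (40.6 to 78.02 FPKM).

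Of the carriers, 10 of 12 were tested. For weaning in control litters 3 of the 10 were higher and 1 lower with a P under 0.05, and only SLC1A5 passed the fold limit, where 17.7% of all gene names had such a P, 25.3% had no overlap and 3.31% were past the standard. SLC7A1, a cationic amino acid carrier, had a mean of 10.6 FPKM before and 15.4 FPKM after weaning, SLC25A22, a mitochondrial glutamate carrier, 25.0 and 34.6 FPKM, and SLC25A13, a mitochondrial aspartate and glutamate carrier, 15.9 and 11.9 FPKM, each without overlap. SLC1A5, a glutamine carrier of the plasma membrane, had 17.7, 12.8 and 7.97 FPKM before and 49.6, 16.9 and 23.3 FPKM after weaning in control litters, with overlapping groups (1.08, 0.08 to 2.08, adjusted p = 0.255). It did not pass the standard without sucking control 2 (1.11), sucking control 3 (0.80), weaned control 1 (0.65) or weaned control 3 (1.18). By qRT-PCR the study found no significant effect of weaning on SLC1A5, but a trend to an increase. SLC25A2, a mitochondrial ornithine carrier, was higher in sucking resveratrol piglets (9.71, 14.6 and 13.1 FPKM) than in sucking control piglets (3.87, 6.77 and 5.82 FPKM), a log2 fold change of 1.06 (0.25 to 1.87, adjusted p = 0.171). After median-of-ratios rescaling it was at 0.97, under the fold limit, and also without sucking control 1 (0.87) or sucking resveratrol 2 (0.95). In the libraries with a score of at least 0 it was at 0.998 and short of the standard. The 4 tested genes of the glutamine and glutamate entry list, GLS2, GLUD1, GOT1 and GPT2, had no P under 0.05 in any comparison. GPT2, a mitochondrial alanine aminotransferase, ranged from 0.837 to 69.4 FPKM over the libraries.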

How the data were processed

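Poly(A) RNA of jejunum from 12 piglets was sequenced as paired 150-base reads, and the authors deposited FPKM values per locus. The submitters' processing notes name HISAT2 2.0, Bowtie 0.12.2, StringTie 1.3.0 and Sscrofa10.2 without their roles (and mm8, a mouse build), whereas the study's methods name TopHat, StringTie and Ballgown. The sources name no step that scales libraries to each other after FPKM, and the deposited table gives no counts, so that no counting error could be given; the read totals that the study's supplement lists for the control libraries were not used. Of 41264 loci, 17650 (42.8%) carry no gene name and were not used. The loci of a name were summed, and a name was tested where its mean over the fitted libraries reached 0.5 FPKM. Some genes of the route were found only by Ensembl identifier through a RefSeq gene table of another build, from which no coordinates or sequences were taken. GOT2, PRODH, PYCR1, PYCR3 (PYCRL), SLC25A15, SLC25A18 and ODC1 were not analysed here. Some genes of the lists are not reported here and were left out of the list counts.

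Tests were made on log2(FPKM + 1) with limma 3.58.1 in R 4.3.3 (lmFit, eBayes with trend), over the 6 libraries of a litter set for weaning within it and over all 12 in 4 groups otherwise. Exact permutation tests were two-sided and used 20 splits, or 400 when ages were permuted within each diet. On simulated data with 200 of 12664 genes changed by a log2 fold change of 2, 94.5% were recovered in the control weaning comparison, and 98.5% over both litter sets, where 12877 genes were simulated. Recovery of log2 effects smaller than 2, such as the -1.10 of CPS1 for weaning in control litters, was not tested. Python 3.11.15 with pandas 2.3.3 was used for the tables. Named genes were the members, genes of the 4 lists (at most 4 a list in a comparison) and the 3 gene names nearest to each member by Pearson r among those with a mean of at least 1 FPKM. Replicates are separate piglets per the labels. Members and lists were chosen with earlier results of these data known. Alternatives were the highest locus per gene, a pseudocount of 0.1, a filter set at 5 FPKM or removed, quantile and median-of-ratios scaling, no trend, a replicate block, each replicate left out, the Ballgown linear model, other sets of libraries in the fit, and marker scores as covariates. The fit of libraries with a score of at least 0, and the score covariates outside the comparison over both litter sets, were chosen after seeing the data.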

Additional observations from a re-analysis of the deposited data

Results flagged for a closer look

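By unadjusted P, the weaning effect of ALDH4A1 differed between resveratrol and control litters by -1.20 on the log2 scale in the 12-library fit (adjusted p = 0.251). It was the 1 gene of 25 past the standard, where 7.76% of all gene names were past it. No gene name had an adjusted p under 0.05 for this difference. All 3 weaned libraries were above all 3 sucking libraries in control litters, and all 3 were below them in resveratrol litters.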

How the results depend on the processing

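CPS1 kept its fall with weaning in control litters, past the standard, in each alternative run for that comparison. The other calls and counts were less stable, groups of 3 piglets limit their precision, and without counts no counting error is given. Members past the standard numbered 1 for weaning in control litters and 0 in the other comparisons. The number became 1 in resveratrol litters (ASL) and for the difference between litter sets (CPS1) in libraries with a score of at least 0, both resting on 1 weaned resveratrol library with the spread of the other groups. It also became 1 with the distal-minus-proximal score as covariate over both litter sets (ASS1, -1.01), for the difference (CPS1) and for resveratrol in sucking (ASS1) and weaned (OAT) piglets, in weaned piglets with the villus score (ASS1), and in sucking piglets after median-of-ratios rescaling (CPS1). With 1 library left out it was 1 to 3 in control and 0 to 1 in resveratrol litters, 0 over both and for the difference, 0 to 2 for resveratrol in sucking and 0 to 1 in weaned piglets. GLUL (-1.17) passed for weaning in resveratrol litters without sucking resveratrol 3.

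Gene names past the standard numbered 418 for weaning in control litters, 618 in resveratrol litters, 183 over both, 1000 for the difference, 615 for resveratrol in sucking and 200 in weaned piglets. A pseudocount of 0.1 gave 853, 1163, 591, 1324, 1185 and 456 in that order, and a minimum of 5 FPKM gave 227, 245, 118, 364, 250 and 112. Leaving out 1 library gave 380 to 550, 388 to 1049, 153 to 255, 633 to 1367, 407 to 1017 and 201 to 358. The Ballgown model gave 257 in resveratrol litters, and libraries with a score of at least 0 gave 348 in sucking and 407 in weaned piglets. Scaling moved the share of calls that were higher. In resveratrol litters it was 20.9%, 44.6% after median-of-ratios and 46.9% after quantile scaling, over both 51.9%, 69.4% and 62.5%, for the difference 23.3%, 42.8% and 45.7%, in sucking piglets 69.9%, 59.4% and 54.4%, and in weaned piglets 42%, 57.9% and 52%.

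Some effects changed sign. In control litters the Ballgown model gave 0.034 for ASS1 and -0.099 for ARG2, and leaving out 1 library gave -0.27 to 0.14 for OTC, -0.54 to 0.29 for ASS1, -0.29 to 0.27 for ARG2 and -0.21 to 0.035 for NAGS. In resveratrol litters the Ballgown model gave 0.33 for CPS1, 0.11 for ALDH18A1 and 0.79 for GLUL, and libraries with a score of at least 0 gave 0.52, 0.12 and 0.055. For resveratrol in weaned piglets ASS1 (-1.87) was 0.37 and CPS1 (-0.16) 0.73 in those libraries, which keep 1 weaned resveratrol library. CPS1 was 0.20 there with the distal-minus-proximal score as covariate, and -0.61 to 0.095 with 1 library left out. The cause was not tested.

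Piglets with the same replicate number did not deviate together (r = -0.06, 0.09 and -0.01 in control litters, -0.26, 0.11 and -0.23 in resveratrol litters). With groups of 3 piglets these values cannot show whether the numbers pair litter mates, since a small litter effect could be missed. The study's methods describe a male piglet taken from each litter at both ages, so that litter mates under the same or other numbers remain possible. Sucking resveratrol 3 had r = 0.36 with weaned resveratrol 1 and -0.23 with weaned resveratrol 2. A replicate block gave 444, 633, 193 and 1033 calls for the weaning comparisons and changed no member's call. It was not used for resveratrol, since the number lies within a diet.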
